A study of Mus musculus with 25 samples.

Results

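The genes described here are 9 markers of adipose progenitors and fibroblasts: Pdgfra, Pdgfrb, Dpp4, Pi16, Cd34, Dpt, Icam1, F3 and Cytl1. They were picked by name, with earlier results of the same arrays known, and they are 9 of the 22180 genes that could be followed by a single gene symbol. Each of the 9 was read by a single transcript cluster (the array's probe set for a transcript) with that symbol alone. The fall of Cytl1 with time was part of the reason for including it, so its levels over time are described without a test. RNA came from the gonadal white adipose tissue of heterozygous male apoE3L.CETP mice, which carry human APOE3-Leiden and human CETP and so handle lipoproteins more like people do. All groups share these transgenes. There were 3 arrays of mice fed cholesterol-enriched high-fat food (HFD) and 4 on the low-fat control diet (LFD) after 4 weeks, 4 and 4 after 8 weeks, 4 and 4 after 12 weeks, and 2 of mice on chow before the diets began, labelled as biological replicates. The labels give an age of 12 weeks for chow mice and of 16, 20 and 34 weeks for the diet groups, while feeding started at 12 weeks of age. Times below are therefore weeks on the diet.

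Adipose progenitors are Pdgfra-positive cells of the stroma that divide and turn into adipocytes when the depot grows. In mouse fat, Dpp4 and Pi16 mark early interstitial progenitors, Icam1 marks progenitors committed to become preadipocytes, and F3 (CD142) marks a population reported to restrain the differentiation of its neighbours. Stromal cells that do not become adipocytes lay down matrix as fibroblasts, which Dpt and Cd34 also mark. These proteins are not exclusive to the stroma, since Icam1 is also carried by endothelial cells and leukocytes, Cd34 by endothelium and Pdgfrb by mural cells of vessels. In RNA from whole tissue, fewer cells of a type and less RNA per cell cannot be told apart.

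The sequences just upstream of the genes that carry the main results are shown first, because Icam1 is the gene whose diet difference passed the test, Cytl1 the gene that fell with time and Dpt a fibroblast gene that rose above chow on both diets. Each is the RefSeq window from 250 bases before to 50 bases after the annotated start in build GRCm38.p6, on the plus strand. The windows are chr9:21015690-21015989 for Icam1, chr5:37735269-37735568 for Cytl1 and chr1:164796413-164796712 for Dpt. Capitals mark matches to the κB-type motif GGAAATTCC or to the TATA motif TATAAA, each searched on both strands.
Icam1: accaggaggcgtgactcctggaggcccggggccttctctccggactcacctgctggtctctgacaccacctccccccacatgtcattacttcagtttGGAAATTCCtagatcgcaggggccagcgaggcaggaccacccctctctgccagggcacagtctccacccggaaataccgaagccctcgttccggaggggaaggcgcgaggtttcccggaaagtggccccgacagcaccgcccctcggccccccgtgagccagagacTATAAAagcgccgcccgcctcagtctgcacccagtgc
Cytl1: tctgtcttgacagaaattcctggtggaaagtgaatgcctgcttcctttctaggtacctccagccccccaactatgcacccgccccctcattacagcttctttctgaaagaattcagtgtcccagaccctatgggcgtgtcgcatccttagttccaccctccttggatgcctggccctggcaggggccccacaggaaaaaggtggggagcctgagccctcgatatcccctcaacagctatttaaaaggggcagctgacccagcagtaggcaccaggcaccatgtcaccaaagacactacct
Dpt: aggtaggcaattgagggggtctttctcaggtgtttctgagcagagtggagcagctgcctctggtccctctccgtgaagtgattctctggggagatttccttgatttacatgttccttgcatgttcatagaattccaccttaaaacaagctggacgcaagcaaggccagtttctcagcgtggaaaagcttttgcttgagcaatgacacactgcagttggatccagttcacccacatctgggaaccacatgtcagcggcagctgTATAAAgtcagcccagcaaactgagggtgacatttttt
The Icam1 window held the κB-type letters beginning 153 bases before the annotated start and the TATA letters beginning 13 bases after it. The Dpt window held the TATA letters beginning 12 bases after its annotated start, and the Cytl1 window matched neither motif. Of all 32851 promoter windows in the table, 0.317% held the letters GGAAATTCC and 13.6% the letters TATAAA. The first string is thus rare and the second common. Of the 9 genes, all but Pdgfrb had a window in the table, and among these 8 Icam1 alone matched the κB-type motif. Only the exact letters GGAAATTCC and TATAAA were searched, so windows with other letters of the κB or TATA type would not be counted. This holds for the Cytl1 window as well. A match of letters is a description of the window, not a test of Icam1 or the other genes and not a measurement of binding.

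Pdgfra lies at chr5:75151322-75198206 in the same build, and 4 further genes at chr2:62330073-62412315 (Dpp4), chr17:29318796-29328903 (Pi16), chr1:194938821-194961292 (Cd34) and chr3:121723537-121735052 (F3). A further Cd34 cluster shared its annotation with another gene and was left out. Values are log2 array levels, which compare a gene between arrays and not between genes. A gene was called when its adjusted p was under 0.05 in limma, fitted over all 22180 genes with Benjamini-Hochberg adjustment.

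The adipose label held in every array. Adiponectin (Adipoq) lay between 10.62 and 11.80 and perilipin 1 (Plin1) between 10.43 and 12.32 over the 25 arrays. Transcripts of other organs were present in some arrays. The mean of 25 hepatocyte genes was 9.23 to 11.09 in 11 arrays, all from 8 or 12 weeks, and 7.43 or less in the other 14. The mean of 15 epididymis genes, expressed in the organ that lies against this fat depot, was 5.43 to 11.82 in 3 arrays (chow array 1, HFD array 1 and LFD array 1 at 4 weeks) and 4.14 or less elsewhere. Without the 11 hepatocyte-rich arrays, 1 HFD and 2 LFD arrays were left at 8 weeks and 1 of each diet at 12 weeks. Those left still differed in the hepatocyte mean. It was 6.76 on HFD and 5.42 and 5.60 on LFD at 8 weeks, and 5.11 on HFD and 7.43 on LFD at 12 weeks. The median difference of the hepatocyte genes (HFD minus LFD, all arrays) was 1.97 at 8 weeks and -1.56 at 12 weeks. Limma called none of the 25 at 8 weeks and 1 as lower at 12 weeks, beside 2.4% and 4.46% of all genes. The part of the hepatocyte transcripts was not tested beyond the values given below without these arrays.

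Icam1, an adhesion molecule that marks committed preadipocytes and is induced on activated endothelium, was higher on HFD. After 4 weeks its level was 7.21, 7.23 and 7.38 in HFD arrays, against 6.94, 7.03, 6.83 and 6.78 in LFD arrays. After 8 weeks it was 7.51, 7.20, 7.57 and 7.50 in HFD arrays, against 7.18, 7.05, 7.30 and 7.11 in LFD arrays. After 12 weeks it was 7.52, 7.74, 7.75 and 7.60 in HFD arrays, against 7.10, 7.23, 7.32 and 7.53 in LFD arrays. The diets did not overlap at 4 weeks, overlapped through a single low HFD array at 8 weeks and barely overlapped at 12 weeks. Averaged over the 3 times, Icam1 was 0.34 ± 0.06 (SE) higher on the log2 scale in HFD fat, a ratio of 1.27, with a 95% interval of 0.21 to 0.47 and an adjusted p of 0.00109. At the single times the difference was 0.38 ± 0.12 (adjusted p = 0.253), 0.28 ± 0.11 (adjusted p = 0.202) and 0.36 ± 0.11 (adjusted p = 0.0651) at 4, 8 and 12 weeks, and none of these passed the test.

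The averaged Icam1 call held when any single array was left out, with differences of 0.32 to 0.37 and adjusted p of 0.000466 to 0.00426. Without the 11 arrays high in hepatocyte transcripts the difference was 0.37, with an adjusted p of 0.179 on the fewer arrays. Among the arrays high in those transcripts alone it was 0.31 ± 0.16 (adjusted p = 0.388) at 8 weeks and 0.33 ± 0.14 (adjusted p = 0.211) at 12 weeks.

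**Figure D1:**
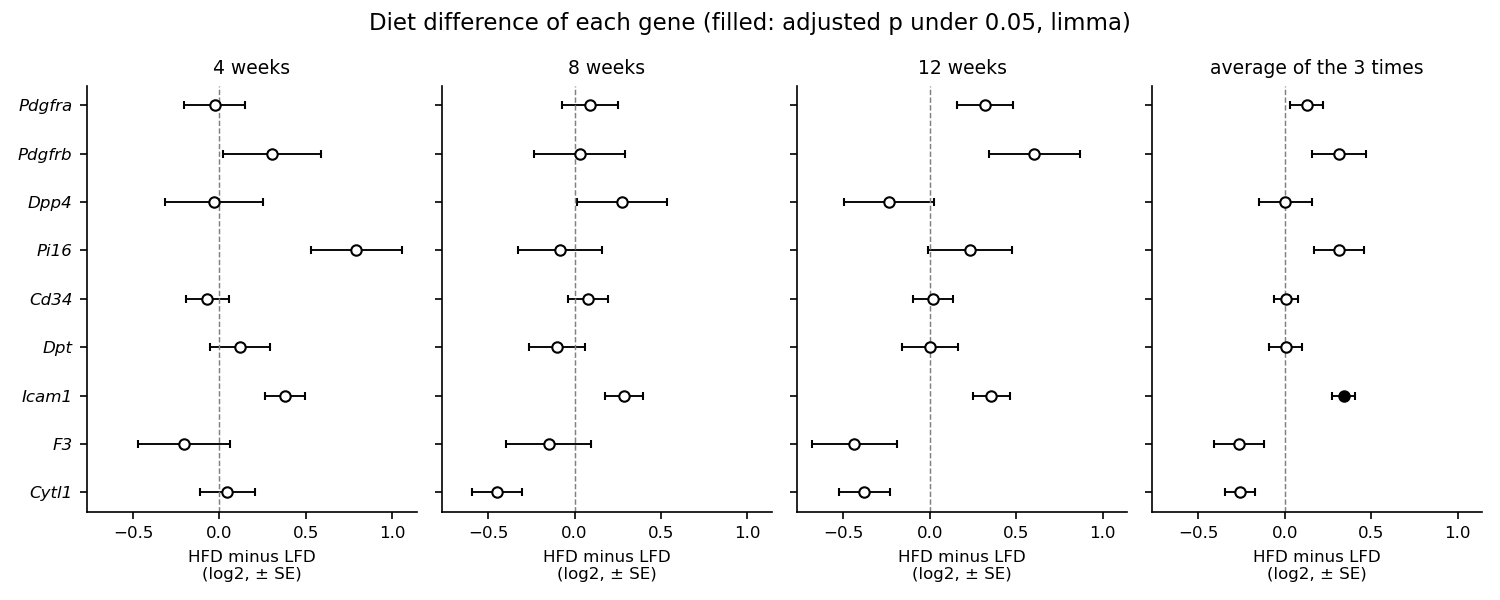
Difference of each of the 9 genes between HFD and LFD (HFD minus LFD, log2, point with SE) at 4, 8 and 12 weeks and averaged over the 3 times; filled points have an adjusted p under 0.05 in limma. Icam1 lies to the right of 0 in every panel, at 0.34 in the average, and is the single filled point.

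Icam1 levels were also higher at later times, though no time comparison was called. Its mean on HFD was 7.27, 7.45 and 7.65 at 4, 8 and 12 weeks (SD 0.09, 0.17 and 0.11, n = 3, 4 and 4), and on LFD 6.90, 7.16 and 7.30 (SD 0.11, 0.11 and 0.18, n = 4 each). The 12-week arrays lay above the 4-week arrays without overlap on both diets. The difference of 12 from 4 weeks was 0.38 ± 0.12 on HFD (adjusted p = 0.176) and 0.40 ± 0.11 on LFD (adjusted p = 0.0796), and neither passed the test. In the arrays low in hepatocyte transcripts it was 0.48 on HFD and 0.42 on LFD, each with 1 array left at 12 weeks. The diet difference did not change detectably with time (adjusted p of the interaction = 0.981).

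Markers of other cells that carry Icam1 were measured in the same arrays. Of 15 macrophage markers, 12 rose and Mertk fell on HFD in the averaged comparison, which called 10.5% of all genes. Their median difference was 0.56, against -0.011 for all genes. Their mean level was 8.68 to 9.0 in HFD and 8.49 to 8.85 in LFD arrays at 4 weeks, 9.03 to 9.58 in HFD and 8.49 to 8.67 in LFD arrays at 8 weeks, and 9.12 to 9.53 in HFD and 8.25 to 8.68 in LFD arrays at 12 weeks. Of 14 endothelial markers limma called none in that comparison, with 1 at an unadjusted p under 0.05 and a median difference of 0.10. Their part in the Icam1 difference was not tested.

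Cytl1 encodes cytokine-like 1, a small secreted protein first described in human CD34-positive blood progenitors and also made by cartilage. Its level was lower at later times on both diets. On HFD it was 7.24, 7.81 and 7.30 after 4 weeks, 6.32, 6.75, 6.50 and 6.27 after 8 weeks and 6.32, 6.24, 6.34 and 6.24 after 12 weeks. On LFD it was 7.29, 7.40, 7.41 and 7.52 after 4 weeks, 6.61, 7.18, 6.95 and 6.90 after 8 weeks and 6.50, 6.67, 6.79 and 6.69 after 12 weeks. Every 8-week and 12-week array lay below every 4-week array of the same diet, while the 8-week and 12-week arrays overlapped. These values describe the pattern for which the gene was included and carry no test.

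On HFD the Cytl1 difference was -0.99 ± 0.16 (SE, log2) for 8 minus 4 weeks and -1.17 ± 0.16 for 12 minus 4 weeks, ratios of 0.503 and 0.446. On LFD it was -0.49 ± 0.15 for 8 minus 4 weeks and -0.74 ± 0.15 for 12 minus 4 weeks, ratios of 0.71 and 0.598. From 8 to 12 weeks the differences were small on both diets, -0.18 ± 0.15 on HFD and -0.25 ± 0.15 on LFD. Hepatocyte genes lay higher at 12 than at 4 weeks, by a median of 2.57 on HFD and 3.99 on LFD. Without the arrays high in hepatocyte transcripts, Cytl1 on HFD was -1.13 for 8 minus 4 weeks and -1.11 for 12 minus 4 weeks, with 1 array left at each later time, and on LFD -0.48 and -0.61, with 2 arrays left at 8 weeks and 1 at 12 weeks. Between the single HFD arrays left, 12 minus 8 weeks was 0.020. The chow arrays, at 6.83 and 7.44, lay below and within the 4-week range.

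**Figure D2:**
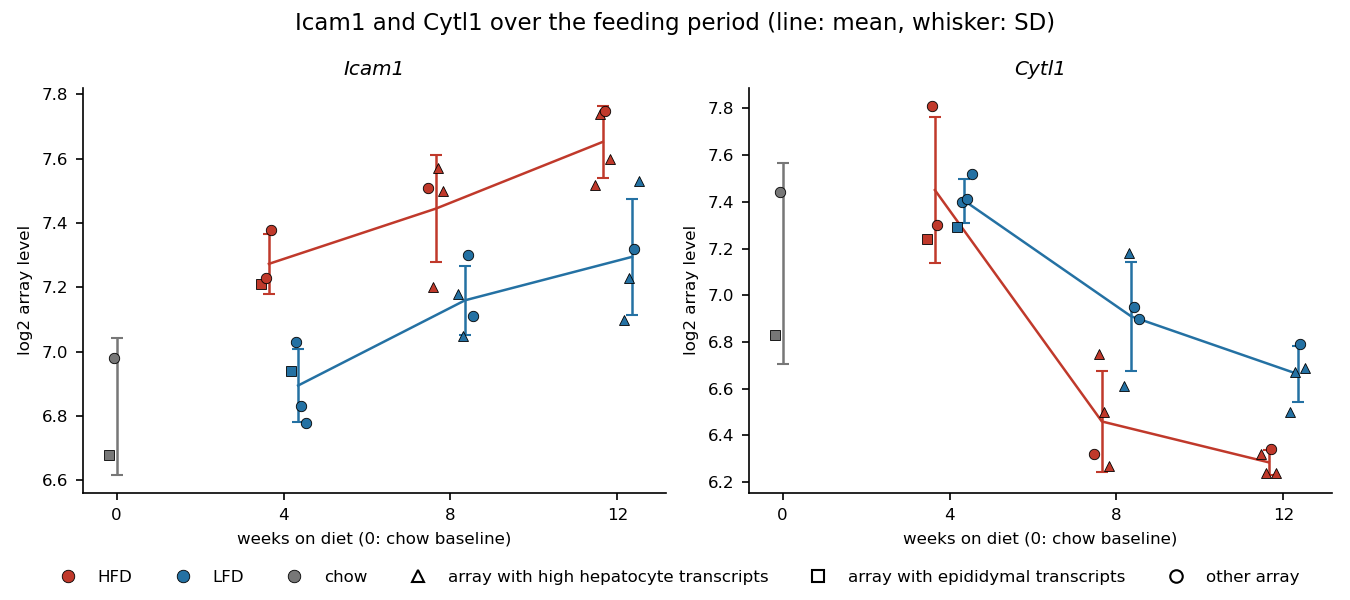
Log2 array levels of Icam1 and Cytl1 against weeks on the diet, with chow at 0; points are arrays, lines join group means and whiskers are SD, and the point shape marks arrays with hepatocyte or epididymal transcripts. The Icam1 mean is higher on HFD than on LFD at each time, and the Cytl1 mean at 12 weeks is 6.29 on HFD and 6.66 on LFD.

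The diet comparison of Cytl1 was not part of the choice and was tested. It uses the same levels as the fall with time, so its tests and that of the interaction are not independent of the choice. After 4 weeks the difference was 0.045 ± 0.16 (SE, adjusted p = 0.96) and the arrays overlapped. HFD minus LFD was -0.45 ± 0.15 after 8 weeks (adjusted p = 0.115), where a single LFD array overlapped the HFD arrays, and -0.38 ± 0.15 after 12 weeks (adjusted p = 0.173), where the diets did not overlap. Averaged over the times the difference was -0.26 ± 0.09, with a 95% interval of -0.44 to -0.08 and an adjusted p of 0.0582, just outside the threshold. In the arrays low in hepatocyte transcripts it was -0.34 (adjusted p = 0.471), and -0.605 at 8 and -0.45 at 12 weeks. It was called in 4 of 15 other settings, at adjusted p of 0.0177 to 0.0317, and in 5 of the 25 fits that left out an array. The change of the diet difference over time was not called (interaction adjusted p = 0.886).

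Pi16, a peptidase inhibitor that marks the interstitial progenitors, varied widely within each diet at 4 weeks. Its level there was 7.69, 8.46 and 8.41 in HFD arrays, against 6.63, 7.69, 7.67 and 7.59 in LFD arrays. The lowest HFD array equalled the highest LFD array, and the first array of each diet, which held epididymal transcripts, was the lowest of its group. The difference was 0.79 ± 0.26 (SE, adjusted p = 0.303) at 4 weeks, -0.08 ± 0.24 (adjusted p = 0.943) at 8 weeks and 0.23 ± 0.24 (adjusted p = 0.736) at 12 weeks, and no time was called. Without the arrays that held epididymal transcripts the 4-week difference was 0.79 (adjusted p = 0.236).

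Dpp4, the protease that gives the same progenitors their other marker, showed no called difference. Its level ranged from 8.77 to 8.99 in HFD and 8.56 to 9.44 in LFD arrays at 4 weeks, from 8.48 to 9.35 in HFD and 8.49 to 8.91 in LFD arrays at 8 weeks, and from 8.39 to 9.0 in HFD and 8.90 to 9.03 in LFD arrays at 12 weeks. The ranges overlapped at every time, and the averaged difference was 0.0031 ± 0.15 (SE, adjusted p = 0.997). Its highest values, 9.71 and 9.44, were in chow array 1 and LFD array 1 at 4 weeks, both of which held epididymal transcripts, whose part was not tested.

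The platelet-derived growth factor receptors differed between diets by less than the test could call. Pdgfrb, the receptor of mural cells and committed progenitors, was 9.22, 9.76, 9.70 and 9.36 in HFD arrays after 12 weeks, against 8.56, 8.76, 9.26 and 9.04 in LFD arrays. A single LFD array reached the HFD range. The difference was 0.61 ± 0.26 (SE, adjusted p = 0.245), and it was called in 4 of 16 other settings, with p of 0.0172 to 0.0381, adjusted except in the analysis of variance. Between the 2 arrays low in hepatocyte transcripts it was 0.44, and among the arrays high in them 0.66 (adjusted p = 0.0247). After 4 weeks it was 0.31 ± 0.28 (adjusted p = 0.793), set by LFD array 1 at 7.83 beside 9.28 to 9.38 in the other LFD arrays, and it was -0.07 without that array. After 8 weeks it was 0.03 ± 0.26 (adjusted p = 0.982).

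Pdgfra, the receptor that defines the progenitor lineage, ranged from 9.10 to 9.65 in all HFD and from 8.95 to 9.72 in all LFD arrays. Its averaged difference was 0.13 ± 0.10 (SE, adjusted p = 0.518), and the largest of the 3 times was 0.32 ± 0.16 at 12 weeks (adjusted p = 0.351). Among the ligands and receptors of this family, 2 of 7 were called in the averaged comparison, both ligands, beside 10.5% of all genes. Pdgfa was 0.28 ± 0.08 higher on HFD (adjusted p = 0.0193) and Pdgfd 0.23 ± 0.07 higher (adjusted p = 0.0473). Without the arrays high in hepatocyte transcripts the differences were 0.21 for Pdgfa and 0.083 for Pdgfd, and neither was called.

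F3 encodes tissue factor, the cell-surface starter of blood clotting, also named CD142. After 12 weeks it was 8.95, 9.02, 8.79 and 9.01 in HFD arrays, against 9.36, 9.13, 9.44 and 9.58 in LFD arrays. The diets did not overlap. The difference was -0.43 ± 0.24 (SE, adjusted p = 0.413), and at 4 and 8 weeks it was -0.21 ± 0.26 and -0.15 ± 0.24 with overlapping arrays. None of these was called. At 12 weeks it was -0.65 between the 2 arrays low in hepatocyte transcripts and -0.36 among the arrays high in them (adjusted p = 0.107).

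Cd34, a sialomucin of fibroblasts and endothelium, and Dpt, the matrix protein dermatopontin, showed small diet differences. The averaged differences were 0.0078 ± 0.07 for Cd34 (SE, adjusted p = 0.973) and 0.0072 ± 0.10 for Dpt (adjusted p = 0.983), with 95% intervals of -0.13 to 0.15 and -0.19 to 0.21. Cd34 was 10.46, 10.41 and 10.46 in HFD and 10.46, 10.34, 10.63 and 10.63 in LFD arrays at 4 weeks, and 9.73, 10.38, 10.27 and 10.29 in HFD and 10.01, 10.11, 10.25 and 10.23 in LFD arrays at 12 weeks. The 12-week arrays lay below the 4-week arrays without overlap on both diets. The difference of 12 minus 4 weeks was -0.28 ± 0.12 on HFD (adjusted p = 0.412; -0.13 without HFD array 1 at 12 weeks) and -0.36 ± 0.12 on LFD (adjusted p = 0.116), and neither was called. With the hepatocyte-rich arrays left out it was -0.17 on HFD and -0.27 on LFD.

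**Figure D3:**
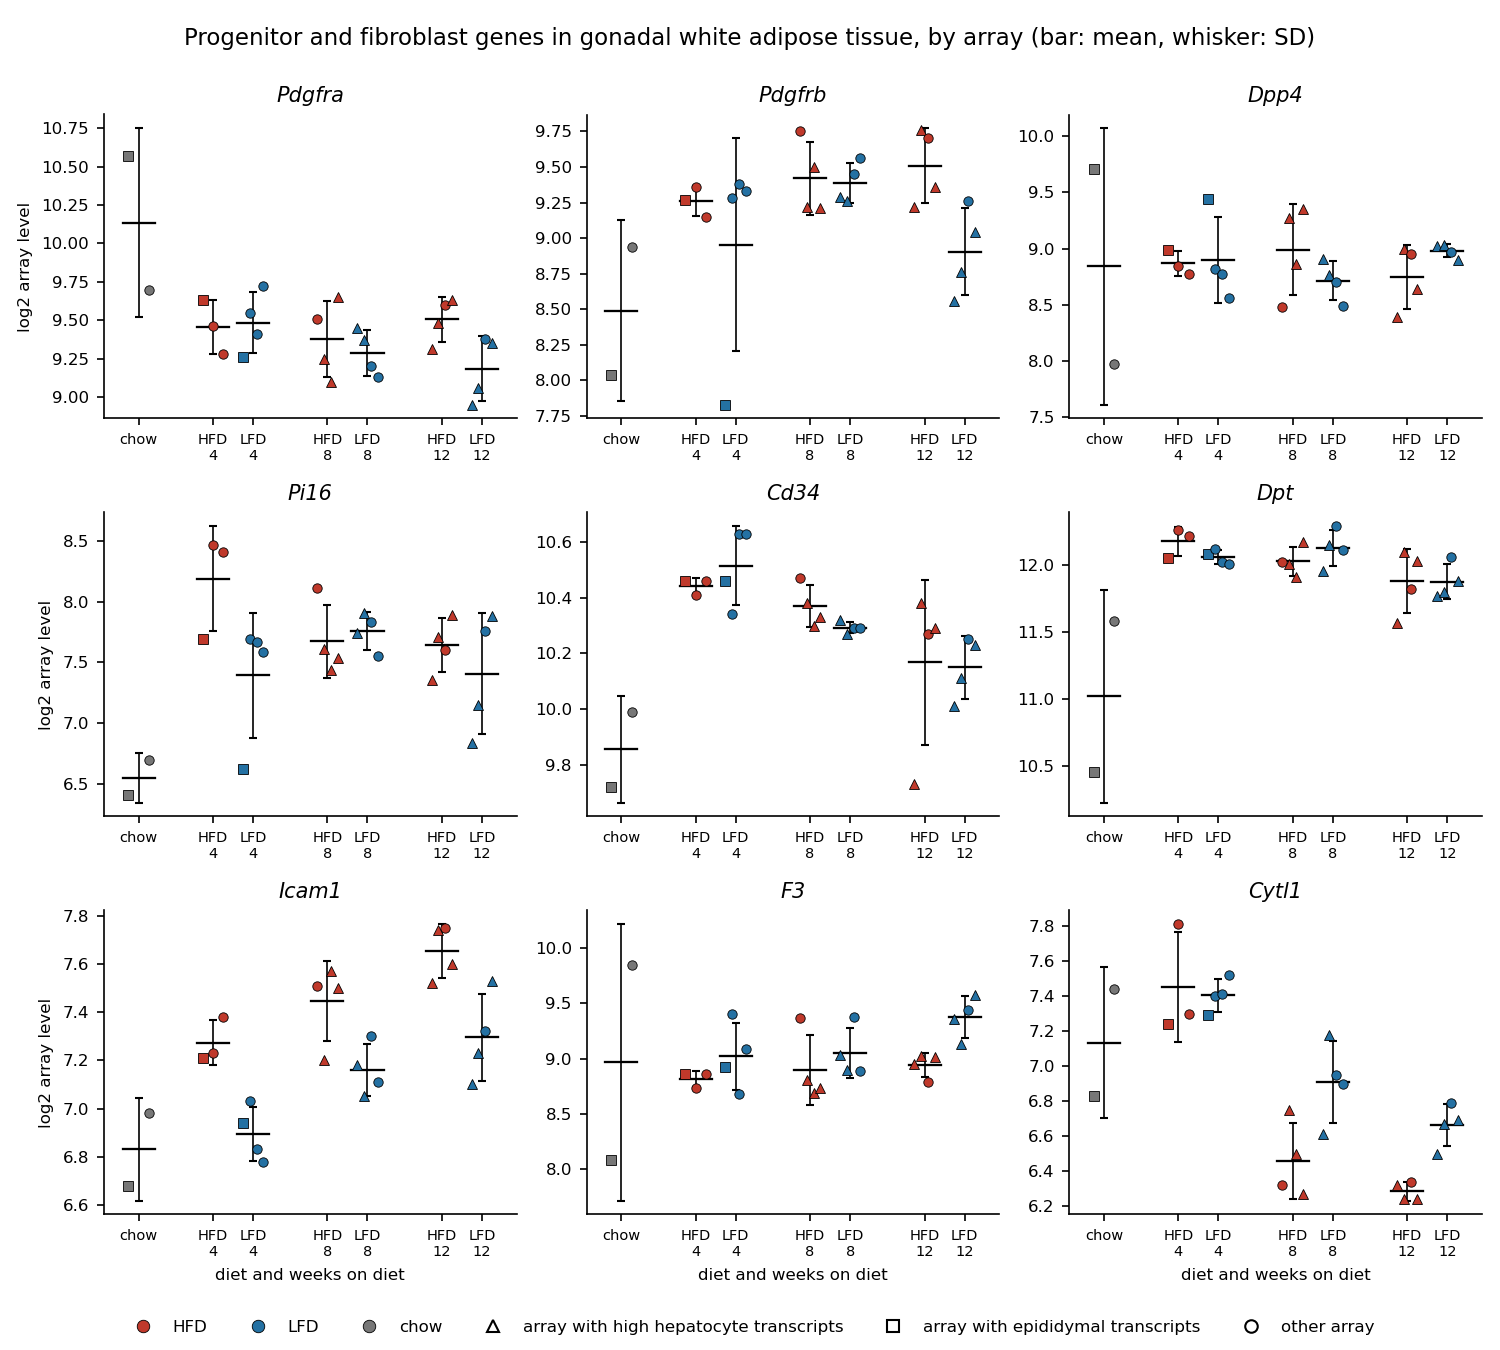
Log2 array level of each of the 9 genes in every array, by diet and weeks on the diet, with the mean (bar) and SD (whisker) of each group; the point shape marks arrays with hepatocyte or epididymal transcripts. The 2 chow arrays lie far apart for Pdgfra, Pdgfrb, Dpp4, Dpt and F3, and LFD array 1 at 4 weeks is the low point for Pdgfrb (7.83) and Pi16 (6.63).

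Counted over the 9 genes, limma called none at 4 weeks, none at 8 weeks, none at 12 weeks and 1 (Icam1) in the average. Over all genes it called 0.212%, 2.4%, 4.46% and 10.5% in these comparisons, so the single call is about as frequent as among genes in general. At an unadjusted p under 0.05 there were 2, 2, 3 and 3 of the 9, beside 9.33%, 13.7%, 16.1% and 21.9% of all genes. An analysis of variance with the submitters' criteria, an unadjusted p under 0.05 and a fold of 1.5, called Pi16 at 4 weeks, none at 8 weeks, Pdgfrb at 12 weeks and none in the average. The diets were separated, with no overlap of arrays, for 1 gene at 4 weeks (Icam1), none at 8 weeks and 2 at 12 weeks (F3 and Cytl1), beside 9.09%, 11.4% and 12.6% of all genes. The median difference of the 9 genes was 0.045, 0.030, 0.0175 and 0.0078 at 4, 8, 12 weeks and in the average, beside -0.0017, -0.0075, -0.010 and -0.011 for all genes. The interaction of diet and time was called for none of the 9 and for none of the 22180 genes by limma. At an unadjusted p under 0.05 it held none of the 9 and 5.41% of all genes. The analysis of variance, which set no fold limit for the interaction, called Cytl1. That call is not independent of the choice of Cytl1.

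Over time, limma called none of the 8 genes other than Cytl1 for 12 against 4 weeks on either diet, beside 0.573% of all genes on HFD and 0.681% on LFD. At an unadjusted p under 0.05 there were 3 on HFD (Pi16, Cd34 and Icam1) and 2 on LFD (Cd34 and Icam1), beside 11.2% and 15% of all genes. The analysis of variance also called none of the 8 for 12 against 4 weeks on either diet. The arrays of 12 and 4 weeks did not overlap for Cd34 and Icam1 on each diet, beside 11.8% of all genes on HFD and 8.82% on LFD. For 8 against 4 weeks limma called none of the 8 as well, beside 0% of all genes on HFD and 0.636% on LFD, and for 12 against 8 weeks none, beside 0.0361% on HFD and 0.0676% on LFD. At an unadjusted p under 0.05 these comparisons held Icam1 for 8 against 4 weeks on LFD and no other of the 8, and the analysis of variance called none of them.

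Against chow, the fibroblast genes Dpt and Cd34 rose after 4 weeks on either diet, while Pdgfra had a lower mean without a call. Dpt was 12.05, 12.26 and 12.22 in HFD arrays and 12.08, 12.12, 12.02 and 12.01 in LFD arrays, against 10.46 and 11.58 in chow arrays. Cd34 in chow arrays was 9.72 and 9.99, below every 4-week array given above. Neither gene overlapped with chow on either diet. Dpt was higher than chow by 1.16 ± 0.21 (SE, adjusted p = 0.00269) on HFD and 1.04 ± 0.20 (adjusted p = 0.0147) on LFD, and Cd34 by 0.59 ± 0.15 (adjusted p = 0.027) on HFD and 0.66 ± 0.14 (adjusted p = 0.0277) on LFD. Pi16 was 6.41 and 6.70 in chow arrays, below every HFD array at 4 weeks, and was 1.63 ± 0.31 (SE) higher on HFD than on chow, a ratio of 3.1 with an adjusted p of 0.0045. On LFD it was 0.84 ± 0.30 higher (adjusted p = 0.132), not called. Limma thus called 3 of the 9 on HFD and 2 on LFD, beside 4.18% and 1.55% of all genes. Arrays did not overlap with chow for 6 genes on HFD and 2 on LFD, beside 25.7% and 14.2%. Pdgfra was the single gene of these that lay below chow. Its level was 10.57 and 9.70 in chow arrays. The Pdgfra difference from chow was -0.68 ± 0.21 (SE, adjusted p = 0.0728) on HFD and -0.65 ± 0.20 (adjusted p = 0.0883) on LFD. Without chow array 1 it was -0.24 on HFD and -0.215 on LFD. Both comparisons share the same 2 chow arrays. By the labels chow mice were 12 weeks old and the 4-week mice 16 weeks old, so diet and age cannot be told apart here. Chow array 1 held epididymal transcripts at a mean of 11.82, and without it none of these calls passed the test. The differences from chow were then 0.60 on HFD and 0.48 on LFD for Dpt (adjusted p = 0.133 and 0.422), 0.45 on HFD and 0.53 on LFD for Cd34 (adjusted p = 0.307 and 0.392) and 1.49 on HFD for Pi16 (adjusted p = 0.0841), with a lone chow array assumed to vary like the other groups. Without chow array 2 they were 1.72 on HFD and 1.60 on LFD for Dpt, 0.72 on HFD and 0.80 on LFD for Cd34 and 1.78 on HFD for Pi16. Of the 14 other settings, the call was lost in 5 for Dpt on HFD, 6 for Dpt on LFD, 5 for Cd34 on HFD, 8 for Cd34 on LFD and 4 for Pi16 on HFD. All 14 endothelial markers, of a cell type that carries Cd34, also lay above chow, with a median of 0.64 on HFD and 0.34 on LFD, and limma called none (4 on HFD and 1 on LFD at an unadjusted p under 0.05). All 10 measured adipocyte markers lay above chow as well, with a median of 0.39 on HFD and 0.29 on LFD. Without chow array 1 the endothelial median was -0.095 on HFD and -0.33 on LFD, and the adipocyte median -0.13 on HFD and -0.16 on LFD. The part of these markers and of the epididymal transcripts in the differences from chow was not tested further.

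Longer lists of stromal genes, chosen with earlier results of these data known, were read from the same fit, so their counts are descriptions. All 13 measured profibrotic genes, which fibroblasts raise when they lay down scar matrix, rose on HFD in the averaged comparison, with a median of 0.64 on the log2 scale. Postn (periostin) was 1.36 ± 0.12 (SE) higher with an adjusted p of 3.69e-07, Timp1, an inhibitor of matrix proteases, 1.26 ± 0.16 higher (adjusted p = 1.94e-05), Col6a3, a collagen VI chain, 0.83 ± 0.09 higher (adjusted p = 4.45e-06) and Acta2, smooth muscle actin, 0.75 ± 0.12 higher (adjusted p = 0.000174). Of 18 measured general fibroblast genes 11 rose and none fell, with a median of 0.34. Lox is in both lists. Serpinf1 was 0.81 ± 0.11 higher (adjusted p = 3.71e-05), Lox, which crosslinks collagen, 0.59 ± 0.11 higher (adjusted p = 0.000893) and Col1a2 0.41 ± 0.08 higher (adjusted p = 0.00144). Pdgfra, Cd34 and Dpt belong to that list and were not among the 11. Over all genes 10.5% were called and the median was -0.011. Which cells of the tissue carried these transcripts was not tested. Of 15 macrophage markers, 12 rose and 1 fell in the same comparison. In the arrays low in hepatocyte transcripts the median was 0.78 for the profibrotic and 0.40 for the general fibroblast list. On these fewer arrays limma called 2 of 13 (Postn and Timp1) and none of 18, beside 1.3% of all genes, with 12 and 9 at an unadjusted p under 0.05. Among the arrays high in those transcripts at 12 weeks the medians were 0.80 and 0.37.

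Lists of the progenitor stages were read in the same way. Of 12 interstitial progenitor genes 2 rose, Sema3c by 0.65 ± 0.13 (SE, adjusted p = 0.0017) and Anxa3 by 0.38 ± 0.08 (adjusted p = 0.00279), with a list median of 0.24. Of 14 committed preadipocyte genes 2 rose, Icam1 and the basement membrane chain Col4a2 (0.58 ± 0.17, adjusted p = 0.0293), with a median of 0.061. Of 10 genes of the CD142 population 2 rose, the matrix proteoglycan Bgn by 0.54 ± 0.09 (adjusted p = 0.000282) and Aldh1a2, a retinoic acid-producing enzyme, by 0.41 ± 0.09 (adjusted p = 0.00242), with a median of 0.070. These counts stand beside 10.5% of all genes called. Without the arrays high in hepatocyte transcripts the 3 medians were 0.15, 0.042 and 0.14 and the Anxa3 difference was 0.14. Limma then called none of the 3 lists' genes, with 1, 1 and 2 at an unadjusted p under 0.05. Of 10 measured mature adipocyte markers Lep rose and Slc2a4, the insulin-responsive glucose transporter, fell, with a median of -0.025. Of 11 mural markers Cspg4 fell, with a median of 0.029.

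**Figure D4:**
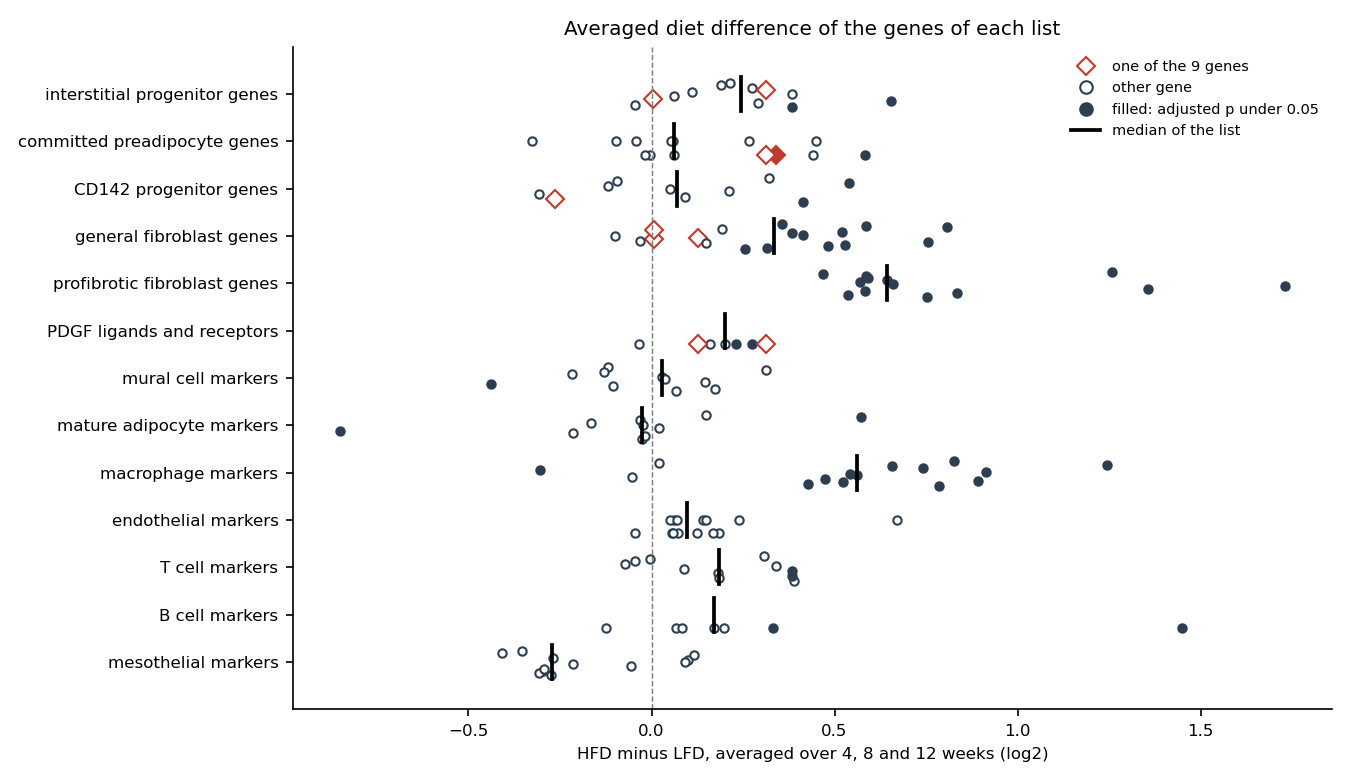
Averaged HFD minus LFD difference (log2) of every measured gene of 13 lists, with filled points for an adjusted p under 0.05 in limma and a bar for each list's median. Diamonds mark the 9 genes other than Cytl1, which is in no list. The lists were chosen with earlier results of these data known. The profibrotic list lies wholly to the right of 0 with a median of 0.64, while the diamonds lie between -0.26 and 0.34.

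Some of the 9 genes varied together from array to array. Over the 22 arrays without epididymal transcripts the Pearson correlation was over 0.5 in size for 5 of the 36 pairs: 0.748 for Pi16 with Dpt, 0.697 for Cd34 with Dpt, 0.590 for Pi16 with Cd34, 0.506 for Pdgfrb with Pi16 and -0.755 for Icam1 with Cytl1. For deviations from the 7 group means over all 25 arrays these were 0.363, 0.555, 0.456, 0.709 and -0.041. The arrays share diets and times, so these values are descriptions with no test.

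The genes most like each in pattern were ranked by Pearson correlation over the 25 arrays. For Icam1 they were Nek6 (0.909), Ptchd4 (0.886) and M6pr (0.877), with 0.658, 0.375 and 0.382 for deviations from group means. For Cytl1 they were S100a1 (0.832), Dxo (0.822) and Ctdsp1 (0.821), with 0.643, 0.275 and 0.628 for those deviations. For Dpp4 they were Atp1b1 (0.859), Krt8 (0.797) and Stk26 (0.778), of which the second is a keratin of mesothelium and other epithelia. For Pi16 they were Fndc1 (0.854), Col15a1 (0.837) and Gdpd5 (0.833), for Dpt Sgce (0.905), Cav2 (0.904) and Cav1 (0.901), and for Pdgfrb Uaca (0.917), Acp2 (0.896) and Cd93 (0.884). For Pdgfra they were Nck2 (0.852), Ace (0.85) and Avl9 (0.846), for Cd34 Adgrd1 (0.824), Plscr3 (0.775) and Mtpap (0.772), and for F3 Mgst3 (0.785), Coro1b (0.752) and Smoc1 (0.747). Several of these values were lower without the 3 arrays that held epididymal transcripts. The correlation of Pdgfra was then 0.640 with Nck2, 0.572 with Ace and 0.562 with Avl9. For Dpt it was 0.784 with Sgce, 0.595 with Cav2 and 0.592 with Cav1. For Pdgfrb it was 0.754 with Uaca, 0.693 with Acp2 and 0.678 with Cd93. Icam1 with Nek6 was 0.918 and Cytl1 with S100a1 0.837 in those arrays.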

How the data were processed

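Gene expression was measured in 25 RNA samples of gonadal fat, each hybridised to a Mouse Gene 2.0 ST array. The deposited values are log2 array levels for 34472 transcript clusters, made by the authors with Transcriptome Analysis Console 4.0.2, per the series design text. How background was corrected and arrays were normalized is not given in the sources used, and the log base was taken from the range of 1.73 to 14.13. Array medians were 5.04 to 5.36 and no depth applies, so the number of arrays limits the precision. The platform annotation gave 23521 clusters a single gene symbol, 1814 several and 9137 none. For each of 22180 genes the cluster with the highest mean was kept.

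Group means were fitted over all arrays with limma 3.58.1 in R 4.3.3, with moderated tests and Benjamini-Hochberg adjustment over all genes. The fit was tested on simulated data of the same size: of genes changed by 1.5-fold, 40.3% were recovered for the diet comparison at 12 weeks and 86.6% for the averaged one. Alternatives changed the arrays, scaling, filter, cluster rule, variance model, weights, threshold or test. The 9 genes and all gene lists were chosen with earlier results of these data known. All 9 genes are named in every comparison, up to 4 called genes per list with the smallest p, and the 3 genes most correlated with each of the 9, provisional names left out. Promoter windows came from RefSeq. Genes in the lists that had no cluster of their own are not analysed here.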

Additional observations from a re-analysis of the deposited data

Results flagged for a closer look

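Each of the 9 genes was checked for a lone array in the 5 groups of 4 arrays, which made 45 checks, of which chance alone marks about 1 in 20. In 3 of them an array stood far from the others. Pdgfrb was 7.83 in LFD array 1 at 4 weeks, beside 9.28 to 9.38 in the other 3 arrays of that group. Pi16 was 6.63 in the same array, beside 7.59 to 7.69 in the others. That array held epididymal transcripts at a mean of 5.43. Cd34 was 9.73 in HFD array 1 at 12 weeks, beside 10.27 to 10.38 in the other 3 arrays of that group.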

How the results depend on the processing

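The number of the 9 genes called was followed through up to 16 other settings and 25 fits that each left out an array. For HFD against LFD at 4 weeks it was 0, and 1 in the analysis of variance (Pi16). At 8 weeks it was 0, and 1 (Cytl1) without the arrays that held epididymal transcripts. At 12 weeks it was 0. It was 1 (Icam1 or Cytl1) when only the groups compared were fitted or without genes below the median level. It was 1 (Pdgfrb) in the analysis of variance or among arrays high in hepatocyte transcripts (a setting chosen after seeing the data). It was 2 (Pdgfrb and Icam1) with array weights or without the epididymal arrays, and 0 to 1 when an array was left out, with 1 (Icam1) without chow array 1, chow array 2 or LFD array 4 at 12 weeks. In the average it was 1, and 2 (Icam1 and Cytl1) with only the groups compared, without genes below the median or with array weights. It was 0 with a limit of 1.5-fold, in the analysis of variance and without the arrays high in hepatocyte transcripts, and 1 to 2 when an array was left out. It was 2 without chow array 1, chow array 2, HFD array 2 at 4 weeks, HFD array 2 at 8 weeks or LFD array 1 at 8 weeks. For the interaction it was 0, and 1 (Cytl1) in the analysis of variance, which set no fold limit there. For LFD at 12 against 4 weeks it was 0, and 2 (Cd34 and Icam1) with array weights. The cause of these changes was not tested, beyond the smaller number of arrays or genes in some.

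The replicate numbers were not taken as pairs, as the labels do not say that they link arrays. Deviations of arrays from their group means had a median correlation of 0.051 over 67 pairs with the same number. The median was -0.017 over 199 other pairs. The correlation was over 0.1 in 29 of the 67 and 51 of the 199. All 3 arrays with epididymal transcripts were array 1 of their group. Both 12-week arrays low in hepatocyte transcripts were array 3. Shared handling by number was not tested beyond the block below. With the number as a replicate block the count was 1 at 8 weeks (Cytl1) and 2 in the average, Cd34 on LFD against chow was no longer called, and no other count over the 9 genes changed.

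Of 66 single-gene values, some changed sign, all uncalled. Pdgfrb at 4 weeks was -0.0060 with array weights, -0.075 without the epididymal arrays and -0.070 to 0.45 when an array was left out. Without the arrays high in hepatocyte transcripts, Dpp4 at 8 weeks was -0.12, Pi16 on LFD at 12 against 8 weeks 0.070, Dpt on LFD at 12 against 4 weeks 0.0025 and Cytl1 on HFD at 12 against 8 weeks 0.020. Cytl1 on LFD at 4 weeks against chow was -0.035 to 0.58 when an array was left out. The limit of 1.5-fold was not run for the interaction, nor the analysis of variance for chow. The chow group held 2 arrays, and without the arrays high in hepatocyte transcripts HFD at 8 weeks and both diets at 12 weeks held 1 array each. The gene lists without those arrays or without chow array 1 were settings chosen after seeing the data. Differences under about 1.5-fold at a single time were often missed at this number of arrays.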

Other observations

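Lymphocyte markers were read beside the macrophage markers, in a comparison that called 10.5% of all genes. Of 7 measured B cell markers 2 rose on HFD in the averaged comparison, the immunoglobulin heavy chain Ighm by 1.45 ± 0.19 on the log2 scale (SE, adjusted p = 2.47e-05) and Cd22 by 0.33 ± 0.10 (adjusted p = 0.0306). Of 11 measured T cell markers 2 rose, Cd4 by 0.38 ± 0.11 (adjusted p = 0.0337) and Thy1, which fibroblasts also carry, by 0.38 ± 0.09 (adjusted p = 0.00719). Of 12 mesothelial markers, genes of the sheet of cells that covers the depot, all had estimates below 0 at 12 weeks on HFD, with a median of -0.54, and limma called none, with 1 at an unadjusted p under 0.05. Between the 2 arrays low in hepatocyte transcripts at 12 weeks that median was 0.080.

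Among the general fibroblast genes, Col1a1, a fibrillar collagen chain, was the single gene called on LFD for 12 against 4 weeks, with a difference of -0.78 ± 0.18 (adjusted p = 0.0425), and -0.67 without the arrays high in hepatocyte transcripts (adjusted p = 0.999). At 12 weeks it was 1.03 ± 0.18 higher on HFD than on LFD (adjusted p = 0.00166), and 1.02 higher among the arrays high in those transcripts (adjusted p = 0.00108). Against chow, 8 of the 18 measured genes of that list rose after 4 weeks on HFD and 3 on LFD (Dpt, Cd34 and Cd248), beside 4.18% of all genes on HFD and 1.55% on LFD. Without chow array 1, which held epididymal transcripts at a mean of 11.82, limma called none on either diet, beside 0.848% on HFD and 0.131% on LFD of all genes, with 9 on HFD and 3 on LFD at an unadjusted p under 0.05, and the list's median was 0.49 on HFD and 0.064 on LFD. On LFD Cd248 (endosialin) was higher by 0.80 ± 0.15 (adjusted p = 0.0159). All these comparisons share the same 2 chow arrays, from mice younger than the 4-week mice.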
